A study of Mus musculus with 28 samples.

Results

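The 7 genes described here are Lyz2, Csf1r, C1qa, C1qb, C1qc, Cd68 and Vcam1, a panel of macrophage genes whose RNA was read in germinal center B cells of mice. They were taken by symbol from the 23382 gene symbols of each library's table, to look for myeloid RNA carried over into sorted B cells. All 7 were found in all 28 libraries. The series compared alleles of Tbl1xr1, which encodes a subunit of the SMRT/NCOR corepressor complex, each against its own control. All mice carried 1 copy of Cg1Cre, a Cre recombinase driven from the immunoglobulin gamma-1 locus, which is active in B cells that respond to antigen. The 6 groups were WT, with unmutated Tbl1xr1 (n = 3), D370Y, with 1 copy of the Tbl1xr1 D370Y mutation (n = 5), ImuBcl6, with the ImuBcl6 allele and unmutated Tbl1xr1 (n = 5), ImuBcl6 D370Y, with both the ImuBcl6 allele and 1 copy of D370Y (n = 5), KO, labelled as having both Tbl1xr1 copies knocked out (n = 5), and the Cre control of the KO group (n = 5). ImuBcl6 expresses BCL6, a transcriptional repressor needed for the germinal center program, from an immunoglobulin heavy chain promoter. The Cre control carried the same genotype label as WT. The labels give neither the age of the mice, nor the sorting gate, nor which animal gave which library, so each p-value measures the spread between these libraries, which may be technical in part.

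Germinal centers contain tingible body macrophages, which engulf dying B cells, and red pulp macrophages of the spleen take up old red cells and recycle their iron. C1q, the recognition unit of the classical complement pathway, is built from the products of C1qa, C1qb and C1qc, and resident macrophages are its main source. CSF1R is the receptor through which CSF1 and IL-34 keep macrophages alive, LYZ2 is the lysozyme of monocytes, macrophages and neutrophils, and CD68 is a lysosomal membrane glycoprotein of phagocytes. VCAM1 is an adhesion molecule that binds the integrin alpha4 beta1, and is made by red pulp macrophages as well as by stromal and endothelial cells.

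In the mm10 annotation (GENCODE M21) the genes of the 3 C1q chains lie side by side on the minus strand of chromosome 4, within 18.7 kb. C1qb spans 136880129 to 136886187, C1qc spans 136889804 to 136893065 and C1qa spans 136895917 to 136898803. Lyz2 is on the minus strand of chromosome 10, from 117277331 to 117282321, and its paralog Lyz1 begins 5475 bases beyond it. Cd68 is on chromosome 11, from 69664213 to 69666153, and Vcam1 is on chromosome 3, from 116109949 to 116129688, both on the minus strand. RefSeq promoter windows (assembly GRCm38.p6, 250 bases before to 50 after the start) were sought for all members but Csf1r, which was left out. They matched 4 members, C1qb, C1qc, Cd68 and Lyz2. These windows are shown because the 4 genes include both those that moved together and those that did not. All 4 are read from the minus strand, 5′ to 3′ along the gene, and lie at chr4:136886151-136886450, chr4:136892865-136893164, chr11:69666121-69666420 and chr10:117282223-117282522 in the order below. Capitals mark GAGGAA, a form of the core bound by ETS factors such as PU.1, on either strand.
C1qb: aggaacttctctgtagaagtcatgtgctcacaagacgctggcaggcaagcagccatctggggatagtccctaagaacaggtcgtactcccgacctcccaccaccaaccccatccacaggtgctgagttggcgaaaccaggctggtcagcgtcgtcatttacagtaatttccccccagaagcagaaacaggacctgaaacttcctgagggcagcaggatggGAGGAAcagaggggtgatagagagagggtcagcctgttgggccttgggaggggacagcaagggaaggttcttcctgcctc
C1qc: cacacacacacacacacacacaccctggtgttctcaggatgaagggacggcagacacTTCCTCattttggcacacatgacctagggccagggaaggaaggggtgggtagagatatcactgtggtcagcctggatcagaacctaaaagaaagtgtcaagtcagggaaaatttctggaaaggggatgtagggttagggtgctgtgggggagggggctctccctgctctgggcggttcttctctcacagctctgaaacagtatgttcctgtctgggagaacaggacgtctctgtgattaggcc
Cd68: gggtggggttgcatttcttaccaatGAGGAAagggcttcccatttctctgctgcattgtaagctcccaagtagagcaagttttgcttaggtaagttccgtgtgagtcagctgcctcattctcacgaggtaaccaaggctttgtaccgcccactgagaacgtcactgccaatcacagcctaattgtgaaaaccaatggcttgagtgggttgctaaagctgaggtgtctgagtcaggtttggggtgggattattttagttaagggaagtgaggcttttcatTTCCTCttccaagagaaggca
Lyz2: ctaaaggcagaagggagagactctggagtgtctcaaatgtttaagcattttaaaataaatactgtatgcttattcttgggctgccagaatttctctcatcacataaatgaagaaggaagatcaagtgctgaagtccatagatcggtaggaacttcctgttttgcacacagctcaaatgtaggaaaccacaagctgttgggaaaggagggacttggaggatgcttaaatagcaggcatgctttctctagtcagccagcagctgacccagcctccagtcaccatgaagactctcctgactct

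GAGGAA was found in the windows of C1qb, C1qc and Cd68, and in 28.3% of all 32851 windows of that table. AGGAAGT, another ETS core whose letters can overlap the first, was found in C1qb, C1qc and Lyz2 and in 9.35% of all windows. TGANTCA, the AP-1 type site, and TTGCNNAA, a C/EBP type site, were found in Cd68 alone of these 4, against 7.81% and 10.8% of all windows. CACGTG, the E-box, was in none of the 4 and in 7.15% of all windows. Both strands were searched for each motif, and each match is a description of letters only.

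Libraries held 19.0 to 37.7 M reads on listed genes, with the WT and D370Y libraries the shallowest, at 19.0 to 22.2 M. B cell identity was plain in all of them, with 9 B cell markers summing to 5399 to 8478 CPM (reads scaled to a common library total, as deposited). Replicate 3 of the KO group stood apart: 64.4% of its denominator fell on listed genes, against 78.7% to 84.6% in the other libraries. The Tbl1xr1 transcript was not lower in the libraries labelled KO than in the Cre control (log2 difference 0.23 ± 0.11 SE, limma adjusted p = 0.527), and gene-level CPM do not show which exons the reads cover, so KO below stands for the libraries labelled so. The female transcript Xist was at 486 to 1460 CPM in D370Y and 2.22 to 9.12 in WT, but at 0.299 to 1.39 in ImuBcl6 D370Y and 304 to 638 in ImuBcl6. The sex pattern therefore ran in opposite directions in the D370Y pairs and was mixed in the KO and Cre control groups.

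All 7 macrophage genes were low beside the B cell genes, and all 7 were above the counting floor in every library. The lowest value of any member was 7 reads, for C1qc in ImuBcl6 replicate 1, where the floor was set at 3 reads. Over all libraries C1qa ranged from 0.466 to 28.8 CPM, Csf1r from 0.831 to 40.9 CPM, and Lyz2 only from 0.818 to 6.14 CPM. Per kilobase of exon, Cd68 was the highest member in D370Y at 6.17 ± 0.539 CPM (SD, n = 5), followed by Lyz2 at 3.23 ± 1.03 and C1qb at 2.84 ± 0.835. In the Cre control C1qa led on the same scale, at 14.2 ± 3.66 CPM per kilobase, and Lyz2 was the lowest, at 1.39 ± 0.480. In bulk RNA, more macrophages and more of a transcript per cell cannot be told apart. Which cells gave the reads of each gene, B cells included, was not tested.

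**Figure D1:**
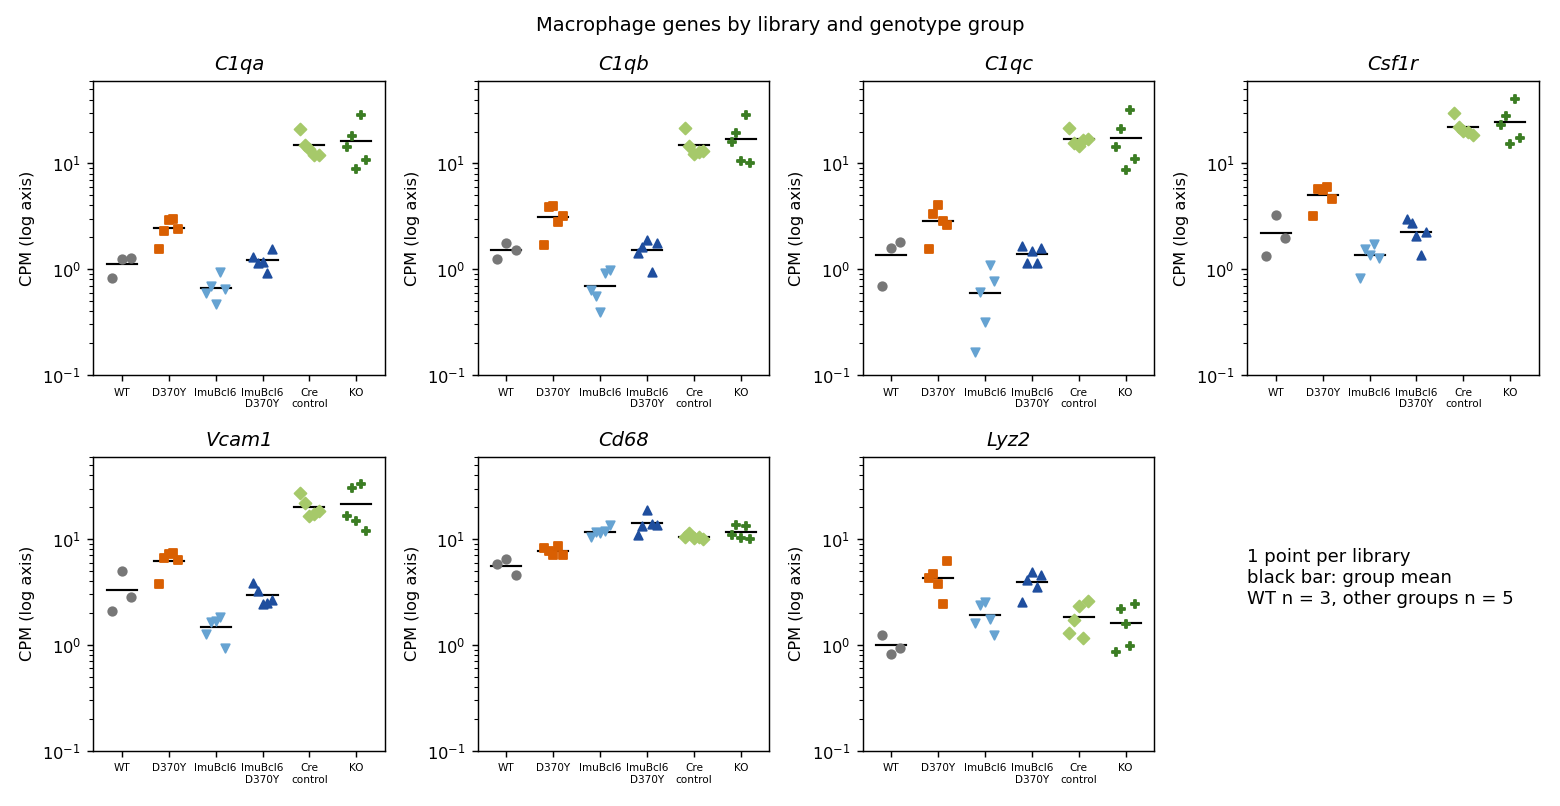
CPM of each member by group on a log axis, 1 point per library with the group mean as a black bar (WT n = 3, other groups n = 5). C1qa, C1qb, C1qc, Csf1r and Vcam1 share a profile with a high plateau in the Cre control and KO groups, whereas Cd68 and Lyz2 do not have it.

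The first question was whether the D370Y allele came with more RNA of the 7 genes than WT. All 7 genes had a higher mean in D370Y, by 1.38-fold for Cd68 to 4.25-fold for Lyz2, and 3 of them, Lyz2, Csf1r and C1qa, were higher past the test (limma on log2(CPM + 1), called at a Benjamini-Hochberg adjusted p under 0.05). Of all 10600 genes tested, 2.60% were called higher. That fit kept genes with 1 CPM in at least 3 libraries, and Lyz2, C1qa and C1qc, with 1, 2 and 2 WT libraries at that level, passed through the D370Y libraries. Without the filter only Lyz2 of the 7 was called, against 1.13% of genes. The median log2 difference of the 7 was 0.71, against -0.02 over all genes tested.

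Lyz2 showed the widest gap. It was at 1.25, 0.818 and 0.931 CPM in the 3 WT libraries and at 4.31, 4.65, 3.72, 2.41 and 6.14 CPM in the D370Y libraries. The lowest D370Y library was above the highest WT library. Its log2 difference was 1.36 ± 0.19 (SE; limma adjusted p = 0.00202, or 0.0132 with no filter), and the call held without any 1 library. Part of the reads could belong to Lyz1, since 425 of 447 aligned coding bases of the pair are identical (95.1%), with a shared run of 118 bases. Lyz1 itself was at 0 to 16 reads per library and stayed under the filter on low values.

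Of the C1q chains, only C1qa was called, and only with the low-value filter. It was at 0.818, 1.25 and 1.29 CPM in WT and at 1.55, 2.31, 2.92, 2.96 and 2.41 CPM in D370Y. Again the groups did not overlap, although the gap between the lowest D370Y library, replicate 1, and the highest WT library was small. The log2 difference of C1qa was 0.68 ± 0.16 (SE; limma adjusted p = 0.0315, or 0.0704 without the filter). C1qb averaged 1.51 ± 0.258 CPM (SD, n = 3) in WT and 3.09 ± 0.909 (n = 5) in D370Y, and C1qc 1.37 ± 0.597 and 2.88 ± 0.915. Both overlapped between the groups through D370Y replicate 1, and neither passed the test (log2 differences 0.68 ± 0.18 and 0.71 ± 0.21; limma adjusted p = 0.0611 and 0.0936).

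Csf1r, the receptor of the lineage's growth factor, was at 1.33, 3.27 and 1.95 CPM in WT and at 3.21, 5.66, 5.56, 5.92 and 4.59 CPM in D370Y. WT replicate 2 was level with D370Y replicate 1, and the other 4 D370Y libraries were above all of WT. Its log2 difference was 0.93 ± 0.20 (SE; limma adjusted p = 0.0231, or 0.0688 without the filter). Vcam1 followed the same libraries, from 2.07, 5.03 and 2.84 CPM in WT to 3.76, 6.67, 7.18, 7.32 and 6.31 CPM in D370Y, and did not pass (0.78 ± 0.22, adjusted p = 0.0780). Cd68 was at 4.61 to 6.41 CPM in WT and at 7.04 to 8.57 CPM in D370Y. The groups did not overlap, yet its log2 difference of 0.41 ± 0.11 did not pass (limma adjusted p = 0.0703). Groups without overlap, D370Y all higher, were thus found for 3 of the 7 (Lyz2, C1qa and Cd68) and for 7.50% of all genes tested.

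The calls of C1qa and Csf1r were near the threshold. With 1 library left out, the log2 difference ran from 0.58 to 0.79 for C1qa and from 0.73 to 1.17 for Csf1r. C1qa lost its call without D370Y replicate 3 or 5 (adjusted p = 0.0698 and 0.0511) or without WT replicate 1, 2 or 3 (0.166, 0.0903 and 0.0988), and Csf1r lost it without D370Y replicate 3 (0.0525), WT replicate 1 (0.126) or WT replicate 3 (0.120). Without D370Y replicate 1, whose C1qa, C1qb, C1qc, Csf1r and Vcam1 values were the lowest of its group, 6 of the 7 genes were called higher, C1qb, C1qc and Vcam1 among them (adjusted p = 0.0101, 0.0336 and 0.0253).

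The same allele was compared on the ImuBcl6 background. Every member again had a higher mean with D370Y, by 1.2-fold for Cd68 to 2.35-fold for C1qc. Fitted without a filter on low values, 5 of the 7, all but Csf1r and Cd68, were called higher, against 1.44% of the genes in that fit. With the filter, which asks for 1 CPM in 5 libraries, 5 members were tested and Lyz2, C1qc and Vcam1 were called higher, where 2.80% of the 10784 genes tested were. C1qc, at that level in 1 ImuBcl6 library, and Vcam1 and Csf1r, in 4, passed it through the ImuBcl6 D370Y libraries. C1qa and C1qb stayed under it, because both were under 1 CPM in every ImuBcl6 library and 1 ImuBcl6 D370Y library.

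Lyz2 was at 1.59, 2.40, 2.55, 1.77 and 1.24 CPM in ImuBcl6 and at 2.51, 4.06, 4.92, 3.51 and 4.58 CPM in ImuBcl6 D370Y. The groups met at ImuBcl6 D370Y replicate 1, and the other 4 libraries were above all controls. Its log2 difference was 0.75 ± 0.16 (SE; limma adjusted p = 0.0141). Vcam1 went from 1.26, 1.66, 1.69, 1.82 and 0.927 CPM to 3.85, 3.20, 2.45, 2.50 and 2.67 CPM. It did not overlap between the groups and rose by 0.67 ± 0.14 on the log2 scale (adjusted p = 0.0103). Lyz2 and Vcam1 were called with each library left out in turn and without the filter (adjusted p = 0.0330 and 0.0218), but Vcam1 lost its call in a fit of all 28 libraries (0.0723).

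C1qc was at 0.166, 0.606, 0.319, 1.11 and 0.772 CPM in ImuBcl6 and at 1.64, 1.13, 1.47, 1.16 and 1.57 CPM in ImuBcl6 D370Y. These groups did not overlap, as for Vcam1, and the pair made 2 of 7 members against 3.32% of all genes tested. The log2 difference of C1qc was 0.61 ± 0.16 (limma adjusted p = 0.0303, or 0.0495 without the filter). Its call was lost with edgeR (adjusted p = 0.0528) and in the fit of all 28 libraries (0.127). It was also lost without ImuBcl6 D370Y replicate 1 (0.0661), 3 (0.0699) or 5 (0.0692), or without ImuBcl6 replicate 2 (0.0556) or 3 (0.0909).

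The other C1q chains were lower still. C1qa averaged 0.666 ± 0.172 CPM in ImuBcl6 and 1.22 ± 0.231 in ImuBcl6 D370Y (SD, n = 5 each), and C1qb 0.696 ± 0.244 and 1.53 ± 0.370. For both, 4 of the 5 ImuBcl6 D370Y libraries were above all ImuBcl6 libraries. Fitted without the low-value filter, C1qa differed by 0.41 ± 0.10 and C1qb by 0.57 ± 0.13 on the log2 scale (limma adjusted p = 0.0446 and 0.0381). Leaving out 1 library brought C1qa or C1qb over the threshold in 8 of 10 cases each, with adjusted p up to 0.115 and 0.0996, both without ImuBcl6 replicate 3.

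Csf1r and Cd68 did not pass on this background. Csf1r was at 0.831, 1.55, 1.35, 1.74 and 1.26 CPM in ImuBcl6 and at 2.95, 2.73, 2.05, 1.35 and 2.22 CPM in ImuBcl6 D370Y, where replicate 4 was level with the controls. Its log2 difference was 0.46 ± 0.15 (limma adjusted p = 0.0825), and it was called without that replicate (0.58, adjusted p = 0.0259). Cd68 averaged 11.8 ± 1.14 CPM in ImuBcl6 and 14.1 ± 2.79 in ImuBcl6 D370Y (SD, n = 5), a difference of 0.23 ± 0.12 (adjusted p = 0.246). ImuBcl6 D370Y replicate 3, at 18.7 CPM, was the highest Cd68 value of the series.

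Averaged over both backgrounds, all 7 members were higher with D370Y past the test, with and without the low-value filter, against 6.23% of the 11166 genes tested. The mean log2 effect was 1.06 ± 0.13 for Lyz2 (SE; limma adjusted p = 5.41e-05), 0.73 ± 0.13 for Vcam1 (0.00143) and 0.70 ± 0.13 for Csf1r (0.00176). For the C1q chains it was 0.55 ± 0.09 for C1qa (adjusted p = 0.000754), 0.63 ± 0.12 for C1qb (0.00148) and 0.66 ± 0.14 for C1qc (0.00344). Cd68 had the smallest effect, 0.32 ± 0.08 (0.0159), and was the only member to lose its call when 1 library was left out, WT replicate 3 (0.27, adjusted p = 0.0721). This contrast gives both sexes' patterns equal weight, since Xist was higher in the D370Y group of one pair and lower in that of the other. Within each pair the allele and the sex pattern cannot be told apart.

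The size of the D370Y effect did not differ past the test between the backgrounds for any member, where 0.663% of all genes were called. Lyz2 came nearest, with an effect smaller by 0.60 ± 0.27 on the ImuBcl6 background (log2 difference -0.60; limma adjusted p = 0.370), and it was the only member with an unadjusted p under 0.05. The 95% interval of that difference ran from -1.16 to -0.04. For C1qc it ran from -0.68 to 0.48, and for Vcam1 from -0.67 to 0.45, so effects that differ by up to about that much remain possible.

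**Figure D2:**
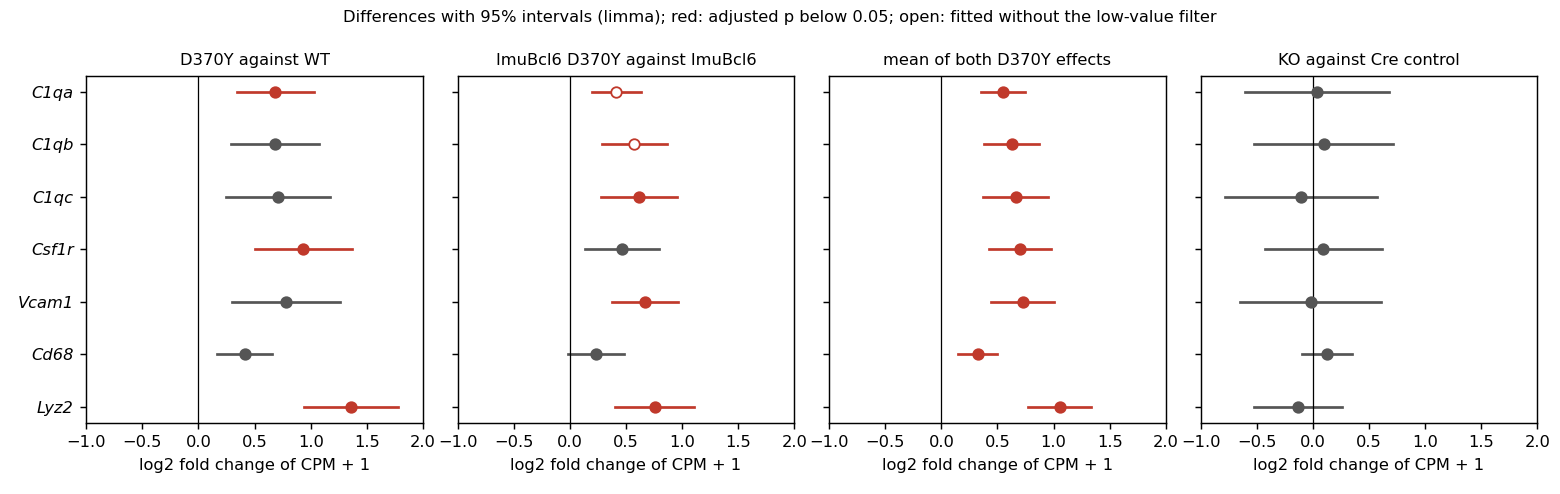
Log2 differences of CPM + 1 with 95% intervals for the 7 members in 4 comparisons (limma), with called genes in red and genes fitted without the low-value filter as open circles. All points lie right of 0 in the D370Y comparisons, and all intervals cross 0 in the KO comparison.

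The libraries labelled KO, in which Tbl1xr1 RNA was not lower, were compared with the Cre control. None of the 7 was called in either direction, where 1.39% of 10514 genes were called (0.476% higher, 0.913% lower), and none had an unadjusted p under 0.05 in limma, nor was any called with edgeR or DESeq2. The log2 differences ran from -0.13 ± 0.19 for Lyz2 to 0.12 ± 0.11 for Cd68 (limma adjusted p = 0.900 and 0.854), and the sign of C1qa, C1qc, Lyz2 and Vcam1 changed with the setting. No member had groups that did not overlap, against 0.742% of genes with KO all higher.

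The intervals were wide for the C1q chains because the KO libraries were spread out. C1qa was at 14.2, 18.0, 8.76, 28.8 and 10.9 CPM in KO and at 21.2, 14.8, 13.8, 12.01 and 11.98 CPM in the Cre control. KO replicate 4 was the highest library of the series for C1qa, and KO replicates 3 and 5 were below all of the Cre control. The 95% interval of the C1qa difference ran from -0.60 to 0.68, and that of C1qc from -0.78 to 0.57. Csf1r followed the same order of libraries, at 23, 27.8, 15.2, 40.9 and 17.2 CPM in KO and 29.8, 21.98, 20.4, 19.7 and 18.7 CPM in the Cre control (interval -0.43 to 0.62).

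Vcam1 averaged 21.3 ± 9.63 CPM in KO and 20.3 ± 4.53 in the Cre control (SD, n = 5), with an interval from -0.65 to 0.61. Cd68 was narrower, 11.6 ± 1.71 and 10.5 ± 0.520 CPM, with an interval from -0.10 to 0.35. Lyz2 was at 0.863, 2.19, 1.57, 0.984 and 2.44 CPM in KO and at 1.29, 1.73, 2.33, 1.17 and 2.61 CPM in the Cre control. KO replicate 4, the library richest in C1qa, Csf1r and Vcam1, was among the poorest in Lyz2.

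The KO and D370Y effects, from pairs that share no library, were compared in a fit of 4 groups. Lyz2 was the only member called, with a KO effect lower than the D370Y effect by 1.49 ± 0.30 (log2 difference -1.49; limma adjusted p = 0.0431), where 0.118% of 11041 genes were called lower. The call was lost with edgeR (adjusted p = 0.178), without the low-value filter (0.0986), with CPM over listed genes (0.0789) and with TMM scaling (0.0685), and it was lost in 11 of 18 fits that left out 1 library, with adjusted p up to 0.159 without WT replicate 3. Differences of the other 6 members ran from -0.84 for Csf1r to -0.29 for Cd68 and did not pass (adjusted p of 0.626 or more).

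The control groups were also set beside each other. For 6 of the 7 members, all but Lyz2, the ratio of means between them was larger than in any allele comparison. Cre control and WT have the same genotype label but a protocol text of their own each, and only the former names a stranded TruSeq kit. Across the 10720 genes tested 38.3% were called higher in the Cre control, so that a call there says little of any gene, and this comparison was added after the values were seen. It shares its WT libraries with the D370Y comparison and its Cre control libraries with the KO comparison.

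C1qa stood at 1.12 ± 0.260 CPM in WT (SD, n = 3) and 14.8 ± 3.8 in the Cre control (n = 5), a ratio of 13.2. The ratio of means was 12.5 for C1qc, 10.1 for Csf1r, 9.89 for C1qb and 6.13 for Vcam1. It was 1.87 for Cd68 and 1.83 for Lyz2. All 7 were called higher (limma adjusted p = 0.0187 for Lyz2 and at most 4.44e-06 for the others). Lyz2 lost its call in the fit of all 28 libraries (adjusted p = 0.0563) and without WT replicate 2 (0.0786) or 3 (0.0606). Between the groups 6 of the 7 did not overlap, against 35.3% of all genes with the Cre control all higher. Lyz2 overlapped. Library kit, batch and animals cannot be told apart here.

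The order of the groups therefore differed between the members. For C1qa and Csf1r, KO and the Cre control came first and overlapped each other, D370Y came next and overlapped neither neighbour, and ImuBcl6 D370Y, WT and ImuBcl6 followed, each overlapping the next. C1qb, C1qc and Vcam1 had the same top ranks. For Cd68 ImuBcl6 D370Y came first, and D370Y and WT came last, each apart from the group above. For Lyz2 D370Y came first at 4.25 ± 1.36 CPM and WT last at 0.999 ± 0.223, with every neighbour in the order overlapping the next.

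The C1q chains were read in similar numbers in every group. Summed over the libraries of a group, C1qb gave 1.01 to 1.35 reads and C1qc 0.884 to 1.22 reads per C1qa read in all 6 groups. Single libraries spread further, for C1qc from 0.280 to 1.2 in ImuBcl6, the group with the fewest C1qc reads per library, and from 0.995 to 1.16 in KO. Csf1r gave 1.5 to 2.05 and Vcam1 1.32 to 2.97 reads per C1qa read. Lyz2, in contrast, gave 0.896 reads per C1qa read in WT, 1.74 in D370Y, 2.88 in ImuBcl6 and 3.20 in ImuBcl6 D370Y, but 0.124 in the Cre control and 0.0997 in KO. Cd68 ranged from 0.711 reads per C1qa read in the Cre control to 17.6 in ImuBcl6. No single proportion of these 7 genes held over the series.

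The same split appeared among libraries of 1 group. With each group's mean removed, log2(CPM + 1) of Csf1r tracked that of C1qa over the 10 KO and Cre control libraries (Pearson r = 0.996, Spearman rho = 1; adjusted p of both 0.00084 by permutation within groups, over 12 relations) and over the 18 others (r = 0.723, rho = 0.659; adjusted permutation p = 0.0066 and 0.0195). Without the 2 libraries farthest from the median of C1qa r was 0.987 and 0.618. For Vcam1 r was 0.889 and 0.646 (rho 0.867 and 0.657; adjusted permutation p of r 0.00698 and 0.0227, of rho 0.0195 in both sets), and without the 2 outer libraries 0.881 and 0.459. Lyz2 leaned the other way, with r of -0.400 and -0.313 (rho -0.430 and -0.319; adjusted permutation p of r 0.358 in both sets, of rho 0.312 and 0.288), or -0.298 and -0.205 without the outer libraries.

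Cd68 tracked C1qa in KO and the Cre control (r = 0.794, rho = 0.879; adjusted permutation p = 0.0374 and 0.0195; r = 0.635 without the outer libraries) but had r = -0.136 (rho -0.0836; adjusted permutation p = 0.586 and 0.761; r = -0.161) in the others. Both values of a pair come from the same library and share its denominator.

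**Figure D3:**
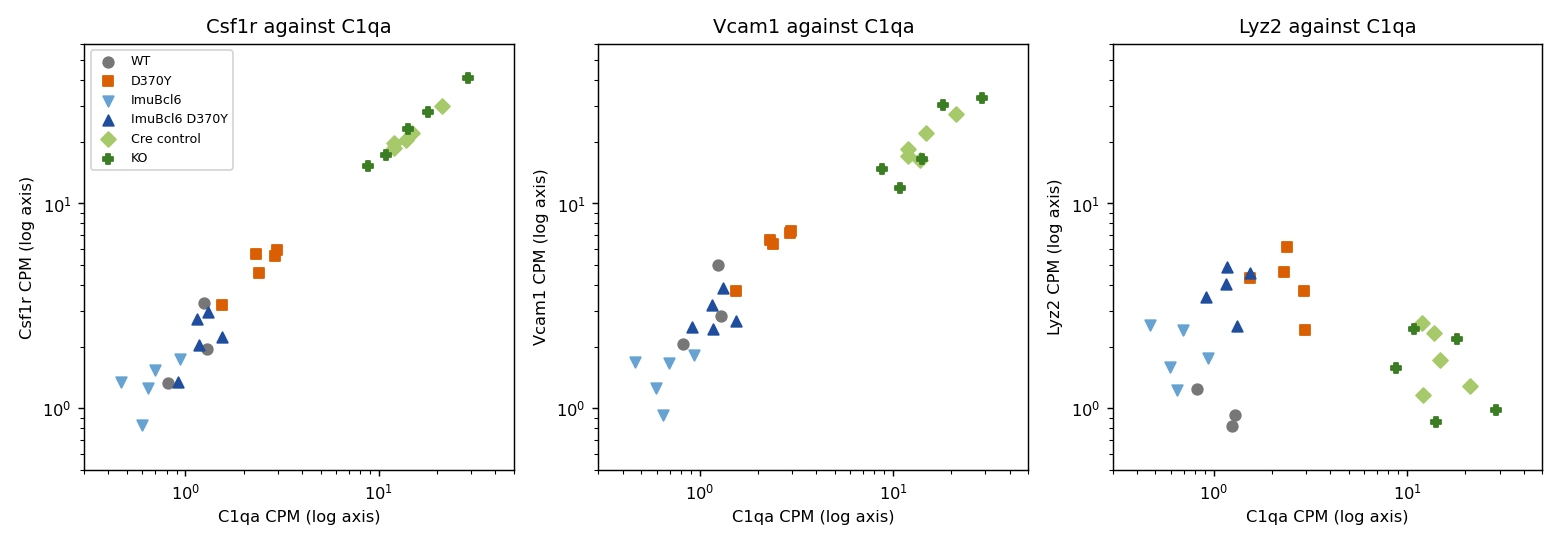
CPM of Csf1r, Vcam1 and Lyz2 against C1qa on log axes, 1 point per library, with groups by colour and shape. Csf1r and Vcam1 lie along a line through all 6 groups, and Lyz2 does not.

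Over all 28 libraries, the genes whose deviations from the group mean were most like the mean of the C1q chains were sought among 11312 genes. Outside the 7, Tyrobp, the adaptor of activating myeloid receptors, was nearest (r = 0.894). Trf (transferrin, 0.828), Emr4 (a myeloid adhesion receptor, 0.814), Adamdec1 (0.811), Cd5l (a protein secreted by macrophages, 0.811) and Axl (a receptor for the uptake of dying cells, 0.808) followed. Fcna (ficolin A, 0.805), C6 (a complement component, 0.804), AF251705 (0.795) and Treml4 (0.788) completed the 10. For these genes r was 0.88 to 0.98 over the KO and Cre control libraries alone, and 0.45 to 0.70 over the other 18. Csf1r ranked 5 and Vcam1 13 in the same list, whereas Cd68 ranked 3433 (r = 0.350) and Lyz2 10327 (r = -0.318).

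Trf showed the same group profile, at 1.86 ± 0.854 CPM in WT (SD, n = 3), 3.36 ± 0.898 in D370Y and 17.2 ± 2.60 in the Cre control (n = 5). Fcna went from 0.985 ± 0.732 to 2.38 ± 0.723 and 14.9 ± 5.03 CPM in those groups. Tyrobp was flatter, at 2.54 ± 0.341, 5.20 ± 0.852 and 6.23 ± 1.48 CPM.

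A wider list of 30 macrophage and monocyte genes was counted in the same way. Against WT, 5 of 19 tested were called higher in D370Y and none lower, where 2.60% of all genes were called higher. Among them were Tyrobp (log2 difference 0.80 ± 0.13, limma adjusted p = 0.00448), Emr1, which encodes F4/80 (1.30 ± 0.23, 0.00959), Axl (0.80 ± 0.15, 0.0103) and Mpeg1, a pore-forming protein of phagocytes (0.55 ± 0.10, 0.0103). On the ImuBcl6 background 3 of 15 were called higher, where 2.80% of all genes were, and none lower: Itgam, the CD11b integrin chain (1.15 ± 0.17, 0.00210), Tyrobp (0.51 ± 0.10, 0.0101) and Emr1 (1.22 ± 0.26, 0.0134). The median log2 difference of the tested genes was 0.34 and 0.32, against -0.02 and -0.01 over all genes, and the other 11 and 15 genes of the list were under the filter. Spic (0.51 ± 0.16 against WT), under 1 CPM in WT on average, passed the filter through D370Y libraries. Genes of this kind can raise the median, and the median without the filter was not computed. None of 22 was called in the KO comparison, where Apoe had -0.11 ± 0.15 (adjusted p = 0.900). The summed level of the 30 genes, at 798 to 1158 CPM in D370Y and 848 to 989 in WT, is mostly Apoe, at 495 ± 111 and 488 ± 58.0 CPM.

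Emr1, Itgam and Mpeg1 differed in profile from the C1q chains. Mpeg1 was at 122 ± 15.0 CPM in ImuBcl6, 151 ± 27.5 in ImuBcl6 D370Y and 30.8 ± 3.35 in the Cre control (SD, n = 5). C1qa averaged 0.666, 1.22 and 14.8 CPM in those groups. Emr1 was at 3.43 ± 0.274 CPM in WT, 10.4 ± 3.59 in D370Y and 7.98 ± 0.934 in the Cre control, and Itgam at 1.59 ± 0.156, 6.11 ± 2.40 and 1.93 ± 0.642. Itgam was not called between the Cre control and WT (log2 difference 0.15 ± 0.16, limma adjusted p = 0.394). The red pulp genes Hmox1 (heme oxygenase) and Slc40a1 (the iron exporter ferroportin) differed by 2.42 ± 0.16 and 2.16 ± 0.21 there (adjusted p = 5.90e-08 and 2.21e-06).

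Neutrophil markers were close to absent. The summed level of 12 of them was 0 to 0.614 CPM over all libraries, none reached the filter in any comparison, and Elane, Mpo, Ngp, Camp, Ltf, Retnlg, Mmp8 and Lcn2 were at or under 3 reads in every library. Ly6g was not used here. Lyz2, which neutrophils also make, was at 0.818 CPM or more in each of the same libraries. The source of the Lyz2 reads was not tested.

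Other genes on the pathways of the 7 were counted beside the share of all genes called higher, which was 2.60% in D370Y, 2.80% on the ImuBcl6 background, 0.476% in KO and 6.23% in the mean D370Y effect. None of 8 tested genes of the CSF receptor list was called in any of the 3 allele comparisons, with Irf8, a myeloid and B cell factor, at -0.03 ± 0.06 in D370Y (limma adjusted p = 0.819) and Sfpi1, which encodes PU.1, at -0.14 ± 0.07 (0.302). Of the complement list, 2 of 10 were called higher in D370Y, Cfp (properdin, 0.73 ± 0.09, 0.00116) and Cd93 (once named as a C1q receptor, 0.82 ± 0.12, 0.00225), and 2 of 11 on the ImuBcl6 background, Cfp (0.71 ± 0.13, 0.00797) and Cd55 (decay accelerating factor, 0.67 ± 0.14, 0.0106). In the KO comparison 2 of 12 were called higher, Cd93 (0.56 ± 0.12, 0.0252) and Cd55 (0.55 ± 0.13, 0.0316). In the mean D370Y effect 4 of 11 complement genes and 3 of 9 genes of the CSF receptor list were called higher and none lower. Of the latter, Csf2rb2 (0.40 ± 0.11, limma adjusted p = 0.0183) was under the filter in both single D370Y comparisons. It was at most 0.974 CPM in ImuBcl6 and at 0.899 to 2.32 in ImuBcl6 D370Y, so it passed here without any ImuBcl6 library at 1 CPM.

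Lysosomal genes, the setting in which CD68 works, were called higher in 3 of 17 with D370Y (Grn and Psap among them, at 0.53 and 0.31), in 5 of 17 on the ImuBcl6 background (Ctss, Psap, Npc2 and Ctsz among them, 0.25 to 0.39) and in none of 17 in KO. In the mean D370Y effect 10 of 17 were called higher. Of the integrins and ligands related to VCAM1, Itgb7 was the only call of 6 with D370Y (0.45 ± 0.09, limma adjusted p = 0.0160) and of 7 in KO (0.51 ± 0.11, 0.0288). None of 6 was called on the ImuBcl6 background.

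Markers of other cells and states moved in the same comparisons, and their part in the macrophage differences was not tested. T cell markers summed to 127 to 154 CPM in ImuBcl6 and 180 to 228 CPM in ImuBcl6 D370Y. Of 5 tested, 2 were called higher, where 2.80% of all genes were: Cd3g (1.45 ± 0.28, limma adjusted p = 0.00927) and Cd2 (0.46 ± 0.07, 0.00298). Cd3g, at 0.332 to 2.09 CPM in ImuBcl6 and 3.09 to 9.12 in ImuBcl6 D370Y, passed the filter through the latter group. The sum is mostly Cd2, which mouse B cells also make, at 138 ± 11.1 and 189 ± 16.1 CPM (SD, n = 5). Cd3e, Cd4 and Thy1 were at 0.163, 0.699 and 0.436 CPM in ImuBcl6 and 0.134, 0.688 and 0.440 in ImuBcl6 D370Y, on average. Of the stroma and endothelium list only 2 genes could be tested on that background, and Pecam1 was called (0.42 ± 0.12, 0.0456). Against WT none of 4 T cell and none of 2 stromal genes was called in D370Y. The median log2 difference of these 4 T cell genes was 0.41, against -0.02 over all genes. In the mean D370Y effect 3 of 5 T cell genes (Cd2, Cd3g and Cd5) were called higher, where 6.23% of all genes were. Of the stromal genes, 1 of 2 (Pecam1) was called higher there. Flt3 was the only dendritic cell marker tested and was not called in any of the 3 comparisons.

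Within the B cells, markers of naive and memory cells were called higher in 9 of 10 with D370Y, in 7 of 10 on the ImuBcl6 background and in 4 of 10 in KO, where 2.60%, 2.80% and 0.476% of all genes were. Plac8 (1.40 ± 0.11, limma adjusted p = 3.3e-05) led in D370Y, Cd38 (1.03 ± 0.13, 0.00108) on the ImuBcl6 background and Klf2 (0.99 ± 0.15, 0.00130) in KO. Germinal center markers were called lower in 4 of 12, 4 of 12 and 2 of 12, where 0.943%, 5.38% and 0.913% of all genes were. The KO comparison had calls in both B cell lists and no call among the 7 macrophage genes. Only 1.39% of all genes were called there in either direction, so the lack of a call does not set the 7 apart from other genes. The limma intervals ran from -0.60 to 0.68 for C1qa and from -0.43 to 0.62 for Csf1r, but only up to 0.26 for Lyz2. Whether the B cell markers moved without the macrophage genes was not tested.

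**Figure D4:**
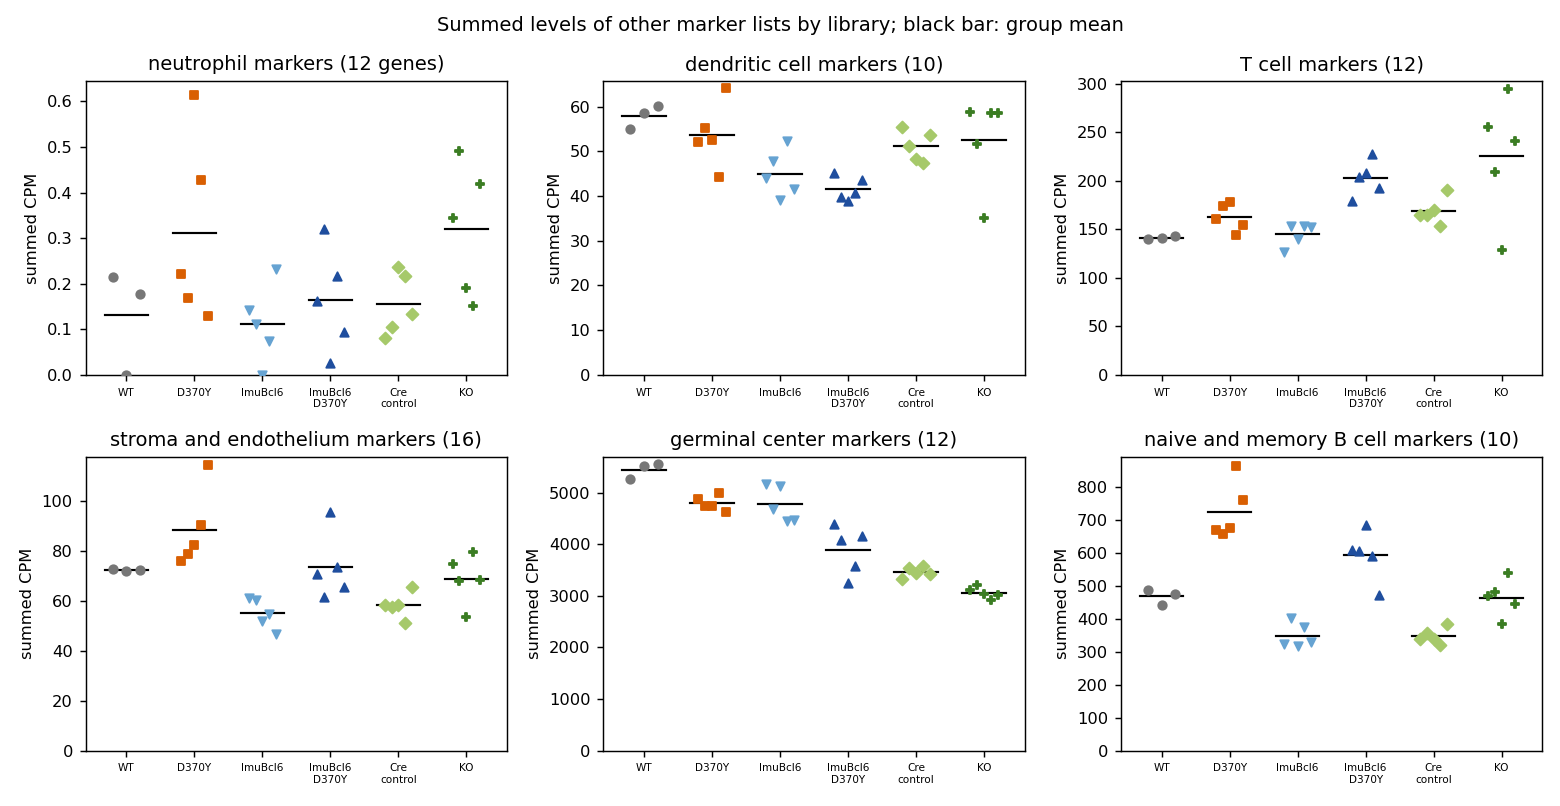
Summed CPM of 6 marker lists by group, 1 point per library, with the group mean as a black bar and linear axes from 0. Neutrophil markers stay under 0.614 CPM in every library, whereas the summed naive and memory B cell markers are higher in each allele group than in its control, on average.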

How the data were processed

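RNA-seq of germinal center B cells was read in 28 libraries in 6 groups, taken from the sample titles and genotype labels. Per the labels' protocols, the material was total RNA prepared by Trizol and RNeasy, with KO and Cre control libraries made by a stranded TruSeq kit. The submitters' processing notes name STAR and mm10. Counter, annotation and strand setting are not given in the sources used here, so reads of Lyz2 and Lyz1, and of overlapping or antisense genes, may have been shared. The authors deposited 1 table of CPM per library for 23382 symbols. All values (100%) were whole multiples of 1 read's CPM within 0.01 of a read, and the recovered reads served for depth, the 3-read floor and the count tests. At 19.0 to 37.7 M reads on listed genes, 3 reads equal 0.0640 to 0.133 CPM. These floors cover counting error only.

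For each comparison log2(CPM + 1) of all genes with a CPM of at least 1 in as many libraries as the smallest group was modelled by limma's trend and robust options (limma 3.58.1 under R 4.3.3), two-sided, with Benjamini-Hochberg adjustment over all genes tested. Fold changes on this scale understate the change of low genes. The filter can pass a gene through the group where it is higher, so counts and medians over tested list genes can lean that way. C1qa and C1qb, under the filter in the ImuBcl6 comparison, were read from the fit without it. Alternatives were edgeR (4.0.16, quasi-likelihood) and DESeq2 (1.42.0) on recovered reads, pseudocounts of 0.25 and 5, no filter, CPM over listed genes, TMM scaling, all 28 libraries in 1 fit, library weights, a replicate block, a sex covariate in the KO comparison and leaving out each library. With edgeR, 358 genes were called in D370Y against WT, 799 on the ImuBcl6 background and 237 in KO. The fits were also run on simulated reads with the same fixed spread for all genes. Only genes with a mean of at least 5 CPM were changed there. That run does not cover the levels of most members in the D370Y comparisons.

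The 7 members and 14 further lists were chosen with earlier results of these data known. All members are named, with up to 4 called members of each list by adjusted p, or up to 2 of the highest tested where none was called, the 10 genes most like the C1q chains, and Lyz1, Tbl1xr1 and Bcl6. Itgam, Hmox1, Slc40a1, Csf2rb2 and the group levels of Mpeg1 and of T cell genes were named after their values were seen. So were the genes of the closing paragraph on marker levels. Correlations used 100000 permutations. Coordinates are from GENCODE M21, and promoter windows from RefSeq (GRCm38.p6). No 2 libraries agreed within sampling noise (chi-square per degree of freedom 3.84 or more). Results for some genes are not reported here.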

Additional observations from a re-analysis of the deposited data

Results flagged for a closer look

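Of 35 sets of 5 libraries (7 genes in 5 groups), 2 had 1 library far from the others. By chance about 1 in 20 such sets would be picked out. Cre control replicate 1 had 21.8 CPM of C1qb, where the next highest library had 14.5. D370Y replicate 1 had 3.76 CPM of Vcam1, where the next lowest had 6.31. The Lyz2 effect differed between alleles, with a KO effect lower than the D370Y effect by a log2 difference of -1.49 (SE 0.30, limma adjusted p = 0.0431), a call that was lost with edgeR, without the low-value filter and under both other scalings.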

How the results depend on the processing

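All 7 members were called higher in the mean of both D370Y effects under each of the 9 other settings run on all its libraries; without WT replicate 3 Cd68 was not called. No member was called in the KO comparison under any setting. The number of genes called in D370Y against WT (376 as reported) was 659 with DESeq2, 219 without the low-value filter and 973 with library weights, and of the 7 members 7, 1 and 6 were called there. On the ImuBcl6 background DESeq2 called 1378 genes (882 as reported), and 5 members were called without the filter and 1, Lyz2, in the fit of all 28 libraries. In the KO comparison (146 genes) edgeR called 237, DESeq2 455, the fit without the filter 86, CPM over listed genes 236, the fit of all libraries 285 and library weights 1111. Library weights gave 2167 genes for the mean D370Y effect (1397), 197 for its difference between backgrounds (74) and 211 for the difference between KO and D370Y effects (16). DESeq2 gave 184 and 43 for these 2 differences, the fit without the filter 49 for the former, and edgeR 8 and a pseudocount of 5 gave 32 for the latter. Replicate numbers did not pair the libraries: same-numbered libraries had correlations of deviations with medians of 0.0259 to 0.0537 over the 3 pairs of groups and minima down to -0.259, and not every library correlated best with its own number in any of the 3. With the replicate block, 764 genes and 7 members were called in D370Y against WT, 1000 genes on the ImuBcl6 background, where C1qa and C1qb had adjusted p of 0.123 and 0.103, and 183 genes in the KO comparison. CPM over listed genes moved the share of calls that were higher from 34.2% to 44.6% on the ImuBcl6 background, from 34.3% to 48.3% in KO and from 49.8% to 64.4% in the mean effect, which TMM scaling moved to 37.0%. Signs that turned belonged to uncalled values. In the KO comparison C1qc was at 0.0561 with edgeR and 0.0540 with DESeq2, Vcam1 at 0.114, 0.112, 0.0392 (CPM over listed genes) and 0.0641 (sex covariate), and with the sex covariate Lyz2 was at 0.0128 and C1qa at -0.000168. In the difference between backgrounds C1qb was at 0.123 with edgeR, 0.143 with DESeq2 and 0.0343 with a pseudocount of 0.25, C1qc at 0.178, 0.197 and 0.0940, and Vcam1 at 0.0960 and 0.114 with both count tests. Leaving out 1 library at a time gave 124 (WT replicate 3) to 473 genes and 1 to 6 members in D370Y against WT, 434 (ImuBcl6 replicate 3) to 1016 genes and 2 to 6 members on the ImuBcl6 background, and 87 (Cre control replicate 2) to 449 (KO replicate 3) genes and 0 members in KO. It gave 896 to 1482 genes for the mean effect, 31 to 110 for the difference between backgrounds and 7 to 63 for the difference between alleles. The uncalled KO differences ran from -0.19 to 0.21 for C1qa, -0.11 to 0.25 for C1qb, -0.35 to 0.0881 for C1qc, -0.10 to 0.24 for Csf1r and -0.20 to 0.15 for Vcam1, and the differences between backgrounds from -0.24 to 0.13 for C1qc and -0.38 to 0.11 for Vcam1. The cause of these shifts was not tested. At 7 to 45 reads of C1qc per ImuBcl6 library, counting error limits the lowest values.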

Other observations

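Spic, Marco, Cd163, Siglec1 and Ccr2, markers of particular macrophage types or of monocytes, were low in all groups. The red pulp genes Hmox1 and Slc40a1 were not, at 44.5 ± 10.4 and 14.3 ± 4.43 CPM in the Cre control (SD, n = 5). Spic, the factor of red pulp macrophages, averaged 0.435 ± 0.0835 CPM in WT (SD, n = 3), 1.07 ± 0.330 in D370Y, 0.25 ± 0.0369 in ImuBcl6 and 0.785 ± 0.238 in ImuBcl6 D370Y (n = 5 each). Every D370Y mean was above that of its control, as for the C1q chains, and the Cre control and KO groups stood at 1.56 ± 0.708 and 1.77 ± 0.870 CPM. Marco, a scavenger receptor of marginal zone macrophages, had a different order, with 0.102 ± 0.0508 CPM in WT, 0.654 ± 0.181 in D370Y, 0.0960 ± 0.0554 in ImuBcl6 and 0.364 ± 0.164 in ImuBcl6 D370Y, and 0.687 ± 0.268 in the Cre control and 0.496 ± 0.196 in KO. D370Y was thus level with the Cre control for Marco but not for Spic in mean.

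Cd163, a hemoglobin scavenger receptor, averaged 1.16 ± 0.395 CPM in the Cre control and 1.71 ± 0.493 in KO (SD, n = 5), and at most 0.266 ± 0.184 in the other groups. Siglec1, of marginal metallophilic macrophages, was at 0.649 ± 0.0796 and 0.704 ± 0.244 CPM in those 2 groups and at most 0.212 ± 0.183 elsewhere. Ccr2, a chemokine receptor of monocytes, averaged at most 0.134 ± 0.132 CPM in any group. These genes were chosen after their values were seen, most stayed under the filter on low values, and no test is given.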
